A study of Mus musculus with 3 samples.

Results

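The genes described here are 10 genes of neutrophil granules and neutrophil surface receptors: Ngp, Camp, Ltf, Mpo, Elane, Retnlg, Clec4d, Trem1, Fpr1 and Fpr2. They were chosen by name, and all 10 were found among the 31896 genes named on the array, at 12 probes. Camp and Mpo had 2 probes each, and the other 8 genes had 1. The samples were 3 primary diffuse-type gastric cancers of mice with the genotype Atp4b-Cre+;Cdh1loxP/loxP;Trp53loxP/loxP, all 12 months old. Each tumour was labelled red (Cy5) on an array of its own, and RNA pooled from 5 normal gastric mucosae was labelled green (Cy3) on all 3 arrays. The pooled mucosae came from mice of the same age and genotype without the recombinase (Atp4b-Cre-;Cdh1loxP/loxP;Trp53loxP/loxP), so both sides carried the floxed alleles. The Atp4b promoter, active in acid-secreting parietal cells, drives the recombinase. The stroma of the normal mucosae was removed mechanically in 30 mM EDTA, a step that the labels do not give for the tumours, so it and the tumour state cannot be told apart. The pool is 1 control sample and shows no variation between normal mice.

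Neutrophils are short-lived white blood cells that are made in the bone marrow and enter tissue during inflammation. They load antimicrobial proteins into granules in order of maturation: primary (azurophil) granules are filled first, with myeloperoxidase and elastase, and secondary (specific) granules later, with lactoferrin and cathelicidin. The transcripts of granule proteins are therefore richest in precursor cells, whereas receptors for formylated bacterial peptides and other danger signals serve the mature cell. In bulk tissue, a change in the number of neutrophils and a change in the RNA each one holds cannot be told apart.

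Some probe sequences bear on how the values can be read, and stretches of them are given as the files hold them, 5′ to 3′. The Ngp probe, shown whole, maps to chr9:110324266-110324814 of mm9 on the plus strand, a span of 549 bases for 60 letters, so its letters are not contiguous in the genome. The letters of the 2 Camp probes overlap by 50 bases and differ there at the 2 bases in capitals, A6G and T10C. The first probe's base is given first, and positions are counted from the 5′ end of the second. Both probes map to the minus strand of chromosome 9 (109749911 to 109749970 and 109749901 to 109749950). The second has a span of 50 bases for 60 letters, so not all of its letters lie in the mapped interval. The Trem1 probe (chromosome 17, 48385849 to 48385908) holds a run of 36 bases of a GTT repeat, of which the first bases are in capitals. The 2 Mpo probes lie on chromosome 11 at 87617840 to 87617899 and at 87615121 to 87615180, and their first 30 bases are shown because the probes gave different values.
Ngp: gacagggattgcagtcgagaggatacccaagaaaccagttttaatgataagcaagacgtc
Camp first probe, bases 11 to 40: cagccAgagTagtaggcctgccttggcctg
Camp second probe, bases 1 to 30: cagccGgagCagtaggcctgccttggcctg
Trem1, bases 7 to 36: tgtgacctgtGTTGTTGTTGTTGTTGTTGT
Mpo first probe, bases 1 to 30: gaaggacggaggccattggccttcctgtgc
Mpo second probe, bases 1 to 30: cctgccaaactgaatcgccagaatcaaatt

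The comparison asked how tumours that arose after combined loss of E-cadherin and p53 differed from normal gastric mucosa, here for neutrophil genes. Of the 10 genes, 7 rose in the tumours and 0 fell. A gene was called when its limma adjusted p over all 19433 genes tested was under 0.05 and its mean log2 ratio of tumour over pool reached 2-fold. Over all genes tested, 9.33% were called higher and 9.68% lower, 19% in all. The lactoferrin gene Ltf and the cathelicidin gene Camp had the largest log2 ratios of the 10, at 4.68 ± 1.24 and 4.34 ± 1.07 (SD, n = 3), which ranked 18 and 27 among the 19433. Elane, Trem1 and Fpr1 were not called. The median log2 ratio of the 10 genes was 2.50, against 0.05 for all genes tested. Only 4 of the 10 (Ltf, Elane, Retnlg and Trem1) were well above background on all arrays in both channels. The other 6 entered the test through the tumour channel alone, so they had to be high in the tumours to be tested, and the count of 7 is to be read with that in mind. With no filter on dim probes the count was 6, and 5.34% of 31877 genes were called higher.

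**Figure D1:**
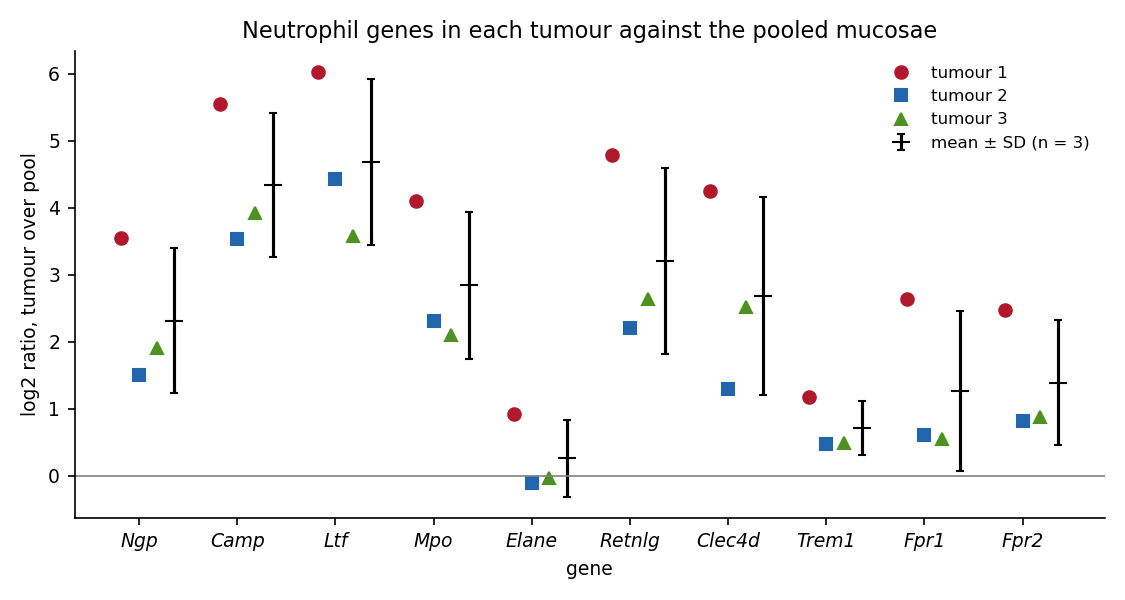
Log2 ratio of tumour over pool (vertical axis) for each of the 10 genes (horizontal axis), at the brightest kept probe of each gene. Points are the 3 tumours and the bar is their mean ± SD. Tumour 1 is the highest point for every gene, and only Elane has points below 0.

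Cathelicidins and lactoferrin are stored in the secondary granules. Camp encodes the cathelicidin antimicrobial peptide, and its first probe had processed signals of 14104, 2943 and 4268 in tumours 1, 2 and 3, against 36.6, 31.0 and 32.0 for the pool on the same arrays. All 3 tumours were far above all 3 pool values, and the pool was not well above background on any array. Camp was at least 20.2-fold higher in the tumours (adjusted p = 0.00296), with log2 ratios of 5.56, 3.54 and 3.92 on the 3 arrays. The second Camp probe, with the 2 differing bases, gave log2 ratios of 5.26, 3.47 and 2.85 on the same arrays. Its pool signal was not well above background on any array either. Since both Camp probes were kept through the tumour channel alone, their shared sign is no test of agreement. For the same reason, the gap between tumour and pool values is no separate support.

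Ltf encodes lactoferrin, an iron-binding protein that withholds iron from bacteria and is also made by secretory epithelia. Its processed signals were 50273, 9565 and 3885 in tumours 1, 2 and 3, against 456, 161 and 93.1 for the pool. Every tumour value lay above every pool value, and both channels were highest on the array of tumour 1. The log2 ratios were 6.03, 4.44 and 3.58, a mean 25.7-fold rise (adjusted p = 0.00344).

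Ngp encodes neutrophilic granule protein, a relative of the cathelicidins in the mouse. Its processed signals were 3057, 441 and 631 in the tumours, against 37.1, 12.8 and 13.1 for the pool. The groups did not overlap, and the pool was not well above background on any array. Ngp was kept through the tumour channel alone, so this lack of overlap is no separate support. Ngp was at least 4.99-fold higher, with log2 ratios of 3.55, 1.501 and 1.91 (mean 2.32 ± 1.09, SD, n = 3; adjusted p = 0.0147).

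Of the primary granule genes here, Mpo was called and Elane was not. The difference between Mpo and Elane was not tested. Mpo encodes myeloperoxidase, which makes hypochlorous acid from hydrogen peroxide. Its first, brighter probe had processed signals of 4588, 917 and 777 in the tumours, against 76.3, 23.6 and 25.3 for the pool. The groups did not overlap, and the pool passed background on 1 array. The log2 ratios were 4.11, 2.31 and 2.11 (mean 2.84 ± 1.10, SD, n = 3; adjusted p = 0.00885). The second Mpo probe was much dimmer, with processed signals of 207, 65.6 and 59.2 in the tumours and 10.6, 9.55 and 10.5 for the pool. Its log2 ratios were 1.01, 0.46 and 0.52. The pool was not well above background at this probe on any array, so these ratios are lower bounds and were not called (adjusted p = 0.0220 over all probes, under 2-fold). With Agilent's processed signals, which carry no offset, the second probe gave 4.28, 2.78 and 2.50. Both Mpo probes were kept through the tumour channel alone, so their shared sign is no test of agreement. For the same reason, the lack of overlap with the pool is no separate support.

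Elane encodes neutrophil elastase, a serine protease of the same granules. Its processed signals were 852, 395 and 429 in the tumours, against 418, 488 and 458 for the pool. Tumour 1 lay above the pool values, tumour 3 within their range and tumour 2 below it. The log2 ratios were 0.92, -0.11 and -0.025, and Elane was not called (adjusted p = 0.403). Of the granule genes, only Elane and Ltf had a pool signal that passed background on every array.

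Retnlg encodes resistin-like gamma, a small secreted protein of mouse neutrophils and marrow. Its processed signals were 13347, 976 and 1497 in the tumours, against 265, 56.1 and 74.7 for the pool. The groups did not overlap, and both channels were again highest on the array of tumour 1. The log2 ratios were 4.80, 2.20 and 2.64, a mean 9.28-fold rise (adjusted p = 0.0116).

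**Figure D2:**
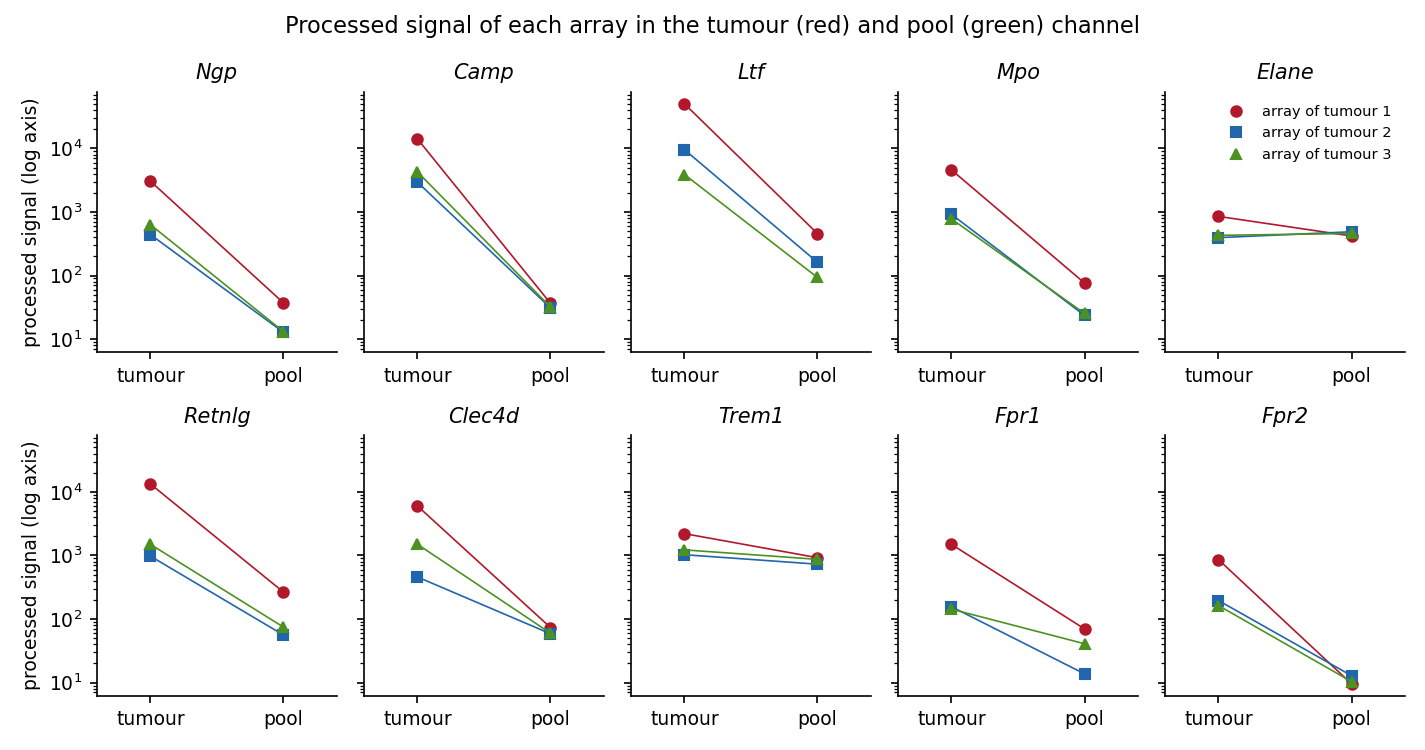
Processed signal (vertical log axis, scanner units after background subtraction and dye normalisation) in the tumour channel (left) and pool channel (right) for each gene. Lines join the 2 channels of 1 array. The lines of Elane and Trem1 are the flattest, and the pool values of Ngp, Camp, Mpo, Clec4d, Fpr1 and Fpr2 are all 76.3 or lower.

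Among the receptors, Clec4d and Fpr2 rose, and Trem1 and Fpr1 did not pass. Clec4d encodes a C-type lectin of myeloid cells that binds a mycobacterial glycolipid and signals through the Fc receptor gamma chain. Its processed signals were 6013, 459 and 1501 in the tumours, against 73.5, 58.7 and 59.9 for the pool, with no overlap. The log2 ratios of 4.25, 1.30 and 2.52 were spread more widely than those of any other of the 10 genes (mean 2.69 ± 1.48, SD, n = 3; adjusted p = 0.0221). The pool passed background on 1 array. Clec4d was kept through the tumour channel alone, so the lack of overlap is no separate support.

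Fpr1 and Fpr2 encode formyl peptide receptors, which steer neutrophils towards bacterial and mitochondrial peptides, and are neighbours on chromosome 17 with 0 protein-coding genes between them. Their 2 probes share no run longer than 6 bases. Fpr1 had processed signals of 1493, 156 and 143 in the tumours, against 70.0, 13.7 and 40.8 for the pool. Its log2 ratios were 2.64, 0.61 and 0.54 (mean 1.26 ± 1.19, SD, n = 3), and it was not called (adjusted p = 0.0872). Fpr2 had processed signals of 860, 195 and 163 in the tumours, against 9.56, 12.8 and 10.4 for the pool. Its log2 ratios were 2.47, 0.82 and 0.89, and it was at least 2.63-fold higher (mean 1.39 ± 0.94, SD, n = 3; adjusted p = 0.0384). For both receptors tumour 1 stood apart and tumours 2 and 3 were alike. The call of Fpr2 was lost when any 1 tumour was left out: without tumour 1 the mean was 0.85, under 2-fold, without tumour 2 the adjusted p = 0.0612, and without tumour 3 the adjusted p = 0.0894. The difference between the 2 receptors was not tested. Of 4 other formyl peptide receptor genes on the array (Fpr3, Fpr-rs3, Fpr-rs4 and Fpr-rs6), 0 entered the test.

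Trem1 encodes an activating receptor that amplifies inflammation through the adaptor Tyrobp. Its processed signals were 2206, 1028 and 1224 in the tumours, against 923, 730 and 869 for the pool. The groups did not overlap, but the gap was small. The log2 ratios were 1.18, 0.47 and 0.50 (mean 0.72 ± 0.40, SD, n = 3). The adjusted p was 0.0317, and the mean stayed under 2-fold. The GTT repeat of this probe was set against the 4 other probes on the array with a run of at least 24 bases of that repeat, which are annotated to Msl1, Fubp3, Gm4146 and E430010N07Rik. All 4 were well above background in the pool on all arrays, as were 49.99% of the probes without such a run. Their mean processed signals in the pool were 409 to 953, against 841 for the Trem1 probe, and their mean log2 ratios in Agilent's processed signals were 0.05 to 0.42, against 0.75 for Trem1. The part of the repeat in the Trem1 signal was not tested.

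Tumour 1 stood apart from the other tumours. All 10 genes had their highest log2 ratio in tumour 1, as did 36.5% of all genes tested, with 30.4% highest in tumour 2 and 33.1% in tumour 3. For 8 of the 10, tumour 1 was at least 2-fold above each other tumour, against 1.8% of all genes tested. Elane and Trem1 were the other 2. Such a lead was held by tumour 2 at 1.35% and by tumour 3 at 0.875% of all genes, and at 0 of the 10. The lead over the next tumour was largest for Retnlg, at 4.45-fold, and Fpr1, at 4.09-fold. Tumour 2 was lowest for 7 genes and tumour 3 for 3 (Ltf, Mpo and Fpr1). Per tumour, the median log2 ratio of the 10 genes was 3.83, 1.399 and 2.01. Each tumour is 1 array, so these differences have no test. Without tumour 1 the means were lower by more than 1.5-fold for 6 called genes, at 4.01 for Ltf, 3.73 for Camp, 2.42 for Retnlg, 2.21 for Mpo, 1.91 for Clec4d and 1.70 for Ngp. All 6 were still called. Without tumour 2 Clec4d was 3.38 (adjusted p = 0.0188). Without tumour 3, 3 of the 10 genes were called, Camp, Ltf and Mpo, against 8.56% of all genes called higher. Ngp (adjusted p = 0.0620), Retnlg (adjusted p = 0.0527) and Clec4d (adjusted p = 0.0960) then missed the threshold with means that were no lower.

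The signal of the pool itself was not the same on all arrays for some of these genes, although its RNA was. After normalisation, the green signal of Ltf differed by 0.97 log2 units between its highest and lowest array and that of Retnlg by 0.86, with the highest on the array of tumour 1 for both. Of 15982 genes well above background in the pool on all arrays, 381 (2.38%) had a range of at least 0.5. Other neutrophil and inflammation genes were among them. The log2 green signal of Lcn2 was 10.95, 8.25 and 8.43 on the arrays of tumours 1, 2 and 3, and that of Saa3 was 9.22, 7.04 and 6.96. Both were chosen after their values were seen. Where the green signal rises with the red one, a ratio for tumour 1 is smaller than its red signal alone would give. With the pool averaged over the 3 arrays, 6 of the 10 genes were called in place of 7, against 8.55% of all genes called higher. Fpr2 then had an adjusted p of 0.0640. The part of this in the results was not tested.

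Other genes of the neutrophil were taken from lists of known granule, receptor and signalling genes. Of 72 companion genes, 66 were tested, of which 36 were called higher and 0 lower, with a median log2 ratio of 1.54, against 9.33% called higher over all genes tested. Of the 66, 29 entered the test through the tumour channel alone, so they had to be high in the tumours to be tested. With both channels required to pass, 26 of 37 were called, against 9.54% of all genes called higher. In the secondary and gelatinase granule list, 6 of 11 tested genes were called higher. They were led by the chitinase-like gene Chil3 (4.50 ± 0.85), the protease inhibitor gene Slpi (4.24 ± 0.33) and the haptoglobin gene Hp (4.09 ± 0.63; SD, n = 3 throughout). Macrophages or epithelia also express these genes. In the primary granule list, 3 of 6 were called: the protease-activating cathepsin gene Ctsc (2.90 ± 0.47), the lysozyme gene Lyz2 (2.51 ± 0.15) and the cathepsin G gene Ctsg, at least 3.83-fold higher. Ctsc and Lyz2 are also macrophage genes. Prtn3, which encodes proteinase 3, a serine protease related to elastase, had 0.45, 0.20 and 0.23 in the 3 tumours and was not called (adjusted p = 0.0726). Its pool signal was not well above background on any array, so these ratios are lower bounds.

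The calgranulin and stefin list had 5 of 8 tested genes called, led by S100a9 (6.70 ± 1.06) and S100a8 (6.55 ± 1.44), whose proteins fill the neutrophil cytosol, and by the annexin gene Anxa1 (3.33 ± 0.73; SD, n = 3), whose product is a ligand of Fpr2. S100a8 and S100a9 were highest in tumour 1, at 8.16 and 7.88, whereas Anxa1 was highest in tumour 2, at 4.09. Of 15 surface receptor genes, 5 were called, among them Pirb (3.30 ± 0.31), an inhibitory receptor, and the decoy receptor gene Il1r2 (1.86 ± 0.95). The receptors most used to define neutrophils were not called. Cxcr2, the chemokine receptor, had 2.81, 0.68 and 1.03 (adjusted p = 0.0514), Ly6g had 0.97, 0.85 and 0.22 (adjusted p = 0.0365, under 2-fold), and Csf3r, the receptor of granulocyte colony-stimulating factor, had 0.90, 0.84 and 0.67 (adjusted p = 0.00492, under 2-fold). For Cxcr2 and Ly6g the pool was not well above background on any array, so these ratios are lower bounds. For Csf3r the pool was bright, with a mean log2 signal of 13.5. Of the 7 genes set down as neutrophil markers (S100a8, S100a9, Lcn2, Mmp8, Csf3r, Cxcr2 and Ly6g), the first 4 were called and the last 3 were not.

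Of 7 tested signalling partners, 5 were called. Fcer1g, the Fc receptor gamma chain used by Clec4d, rose by a log2 ratio of 3.04 ± 0.17, Tyrobp, the adaptor of Trem1, by 2.81 ± 0.22, and the kinase gene Syk by 1.51 ± 0.59 (SD, n = 3). Macrophages share these adaptors. Fcer1g had 3.21, 3.06 and 2.87 and Tyrobp had 2.87, 2.99 and 2.56 in tumours 1, 2 and 3, a narrower spread than Clec4d or Trem1 itself. Of 6 genes of the phagocyte oxidase, 5 were called, among them Ncf4, at 8.57-fold, and Cyba (2.92 ± 0.31). Of 7 transcription factor genes, 3 were called, Cebpd (2.08 ± 0.85), Cebpb (1.96 ± 0.65) and Cebpe, the factor required for secondary granules, which was at least 2.78-fold higher. Of 8 attractant and growth factor genes tested, 5 were called, led by Cxcl5, at least 46.9-fold higher, the serum amyloid gene Saa3 (4.49 ± 1.43) and the interleukin gene Il1b (3.29 ± 1.75; SD, n = 3). Cxcl5 had 7.75, 4.38 and 4.52 and Il1b had 5.26, 2.68 and 1.93 in tumours 1, 2 and 3. All 8 were highest in tumour 1, and the list's median was 3.72, 1.26 and 1.45 in the 3 tumours.

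Some of these values rested on single tumours. Without tumour 1 the mean log2 ratio was 4.45 for Cxcl5, 3.67 for Saa3, 2.31 for Il1b, 5.74 for S100a8, 6.12 for S100a9 and 1.36 for Mmp8, each more than 1.5-fold lower and each still called. Without tumour 2 Cxcl5 was 6.14, S100a8 7.14 and Mmp8 2.89, and the call of Il1b was lost (adjusted p = 0.0546). Without tumour 3 Il1b was 3.97, and the calls of Mmp8 (adjusted p = 0.128), Il1r2 (adjusted p = 0.0620) and Cebpd (adjusted p = 0.0517) were lost.

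**Figure D3:**
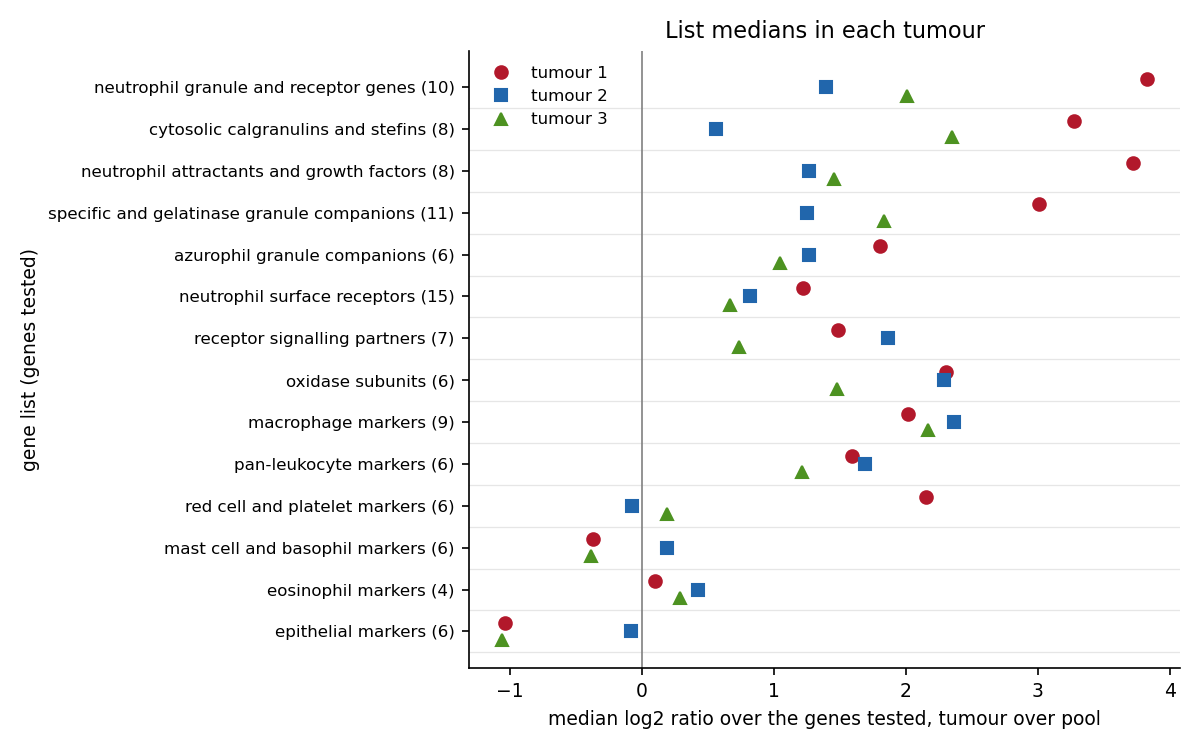
Median log2 ratio of tumour over pool (horizontal axis) in each tumour for the 10 genes and for the companion and marker lists (rows, with the number of genes tested). Tumour 1 lies far to the right of the other tumours for the 10 genes (3.83), the attractants (3.72) and the red cell and platelet list (2.15). It is also furthest right for the calgranulin and stefin list (3.28) and the specific and gelatinase granule list (3.01). By less, it leads for the azurophil granule list (1.80) and the surface receptors (1.22). It lies to the left of both other tumours for the macrophage list (2.02) and the eosinophil list (0.10).

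Relatives from the same gene families gave a mixed picture. Trem2, a lipid receptor of macrophages, rose by a log2 ratio of 3.11 ± 0.26 (SD, n = 3), and the other 4 Trem genes tested were not called. In the Clec4 gene cluster 3 of 5 tested genes were called, Clec4n (2.32 ± 0.26), Clec4a1 (1.64 ± 0.72) and Clec4a3, at least 2.08-fold higher. Clec4e, which encodes the partner of the Clec4d protein and was named after its values were seen, had 3.37, 0.72 and 1.19 in tumours 1, 2 and 3 and was not called (adjusted p = 0.0585). Without tumour 2 the calls of Clec4a1 (adjusted p = 0.0534) and Clec4a3 (0.88, under 2-fold) were lost. Of the resistin-like relatives, 0 of 2 tested were called, and the brighter, Retnla, had a log2 ratio of -0.11. Of the peroxidases, Lpo had -0.10 and was not called. Trf, the transferrin gene related to Ltf, rose by 2.96 ± 0.31 (SD, n = 3).

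Markers of other cells moved with the tumours as well. Of 9 macrophage markers tested, 7 were called, led by C1qb (2.74 ± 0.31), C1qa (2.51 ± 0.42) and C1qc (2.34 ± 0.21; SD, n = 3). The log2 of their summed signal was 13.9 to 14.4 in the tumours and 11.8 to 12.0 in the pool, and Cd68 was not well above background in the pool. Of 5 monocyte markers tested, 4 were called, led by Fn1 (4.57), Cd14 (3.72) and F13a1 (2.88). Of 6 pan-leukocyte markers, 5 were called, led by Cd52 (2.96), Laptm5 (2.22) and Coro1a (1.83), with a log2 of the summed signal of 13.4 to 14.3 in the tumours and 11.7 to 12.2 in the pool. The monocyte median was highest in tumour 1, at 3.89, 2.78 and 2.31 in tumours 1, 2 and 3. Only 2 of the 5 monocyte genes were highest there, Cd14 and F13a1 (3.96, 2.37 and 2.31). Fn1 (4.80, 4.85 and 4.06), Cx3cr1 (2.05, 2.78 and 1.80) and Ccr2 (1.09, 2.19 and 0.33) were highest in tumour 2. The macrophage and pan-leukocyte medians were highest in tumour 2, at 2.02, 2.37 and 2.17 and at 1.59, 1.69 and 1.21 in the 3 tumours. Eosinophil markers (0 of 4 tested) and mast cell and basophil markers (0 of 6) were not called, against 19% of all genes called either way. Their mean log2 ratios ran from -0.08 to 0.59 and from -0.91 to 0.69. The brightest were Siglecf, at 0.02, and Mcpt4, at -0.55, 1.57 and -1.62 in tumours 1, 2 and 3 (mean -0.20). Prg2 (0.59), Il5ra (0.39), Tpsb2 (0.69) and Cpa3 (-0.91) had an adjusted p under 0.05 but stayed under 2-fold. Of 6 epithelial markers, Epcam was called higher (1.20), and Cldn18 (-1.96), Krt8 (-1.56) and Krt19 (-1.27) were called lower. The calls of Krt8 (adjusted p = 0.0659 and 0.0897) and Krt19 (-0.82, under 2-fold, and adjusted p = 0.0875) were lost without tumour 1 and without tumour 3.

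Of 6 red cell and platelet markers tested, 5 had their highest log2 ratio in tumour 1, as the neutrophil genes did. The haemoglobin gene Hba-a1 had log2 ratios of 3.16, -1.03 and 0.24 in tumours 1, 2 and 3, the red cell enzyme gene Alas2 had 3.22, -0.13 and 0.66, and the platelet factor gene Pf4 had 3.18, 0.81 and 0.69. The leads of Slc4a1 (1.14, -0.01 and -0.04) and Gp9 (0.60, -0.17 and -0.17) were smaller. Itga2b, a platelet gene, was highest in tumour 2 (0.21, 0.30 and 0.15). The log2 of the summed signal of the 6 tested genes was 15.87, 11.85 and 13.02 in tumours 1, 2 and 3, against 12.76, 12.54 and 12.74 for the pool on the same arrays. Most of the tumour sums was Hba-a1, at 15.70, 11.29 and 12.79. Of the 6, 0 were called, and 2 (Slc4a1 and Itga2b) were not well above background in the pool on any array. Hba-a1 was the brightest of the list (adjusted p = 0.471). The part of blood held in the tissue in the values of the neutrophil genes was not tested.

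The genes whose values over the 3 tumours lay nearest to the per-tumour median of the 10 genes were sought by Euclidean distance among 13892 other named genes. They were Lgi2 (distance 0.16), Cxcl1 (0.46), Ccl2 (0.53), Mmp8 (0.55) and Pigz (0.62), with distances in log2 units over 3 values each. Mmp8 encodes neutrophil collagenase, and its log2 ratios were 3.94, 0.89 and 1.83. Cxcl1 and Ccl2 encode chemokines, at 3.74, 1.24 and 1.58 and at 3.86, 1.48 and 1.48 in the 3 tumours. For Cxcl1 and Mmp8 the pool was not well above background on any array, so their ratios are lower bounds. The 5 genes were picked for values near those of the 10 genes, so their calls are no separate support. All 5 were called, and all 5 lost the call without tumour 3 (adjusted p = 0.0714 to 0.128). Ccl2 also lost it without tumour 2 (adjusted p = 0.0516). Without tumour 1 Ccl2 was 1.48, Cxcl1 1.41 and Lgi2 1.64, all still called.

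Ngp, Camp and Ltf lie on chromosome 9, with 8 protein-coding genes between Camp and Ngp and 20 between Ngp and Ltf, and the 250 bases before each start site are shown because all 3 rose and are known in the mouse as genes that need Cebpe. Sequences are those of RefSeq in GRCm38.p6, at chr9:110419558-110419807 (plus strand) for Ngp, chr9:111019042-111019291 (plus) for Ltf and chr9:109849457-109849706 (minus) for Camp. Capitals mark matches on either strand to TTNNGNAA, a relaxed form of the C/EBP motif, and to GAGGAAG, a form of the PU.1 motif; a match of one never overlapped a match of the other.
Ngp promoter: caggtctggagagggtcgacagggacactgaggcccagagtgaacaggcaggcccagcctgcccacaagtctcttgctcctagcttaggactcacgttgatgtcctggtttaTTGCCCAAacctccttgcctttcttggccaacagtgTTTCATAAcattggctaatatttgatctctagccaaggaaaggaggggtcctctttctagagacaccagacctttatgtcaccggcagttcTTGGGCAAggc
Ltf promoter: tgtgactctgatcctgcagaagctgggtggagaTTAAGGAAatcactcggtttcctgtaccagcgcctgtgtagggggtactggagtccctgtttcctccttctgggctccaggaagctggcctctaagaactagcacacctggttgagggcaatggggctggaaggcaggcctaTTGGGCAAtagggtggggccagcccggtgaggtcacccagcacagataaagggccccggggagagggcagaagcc
Camp promoter: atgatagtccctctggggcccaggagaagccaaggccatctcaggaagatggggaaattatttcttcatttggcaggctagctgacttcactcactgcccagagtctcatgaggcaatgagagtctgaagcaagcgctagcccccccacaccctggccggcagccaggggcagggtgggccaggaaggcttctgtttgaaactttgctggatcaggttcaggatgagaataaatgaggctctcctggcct

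All 10 genes matched an entry of the RefSeq promoter table, whose windows run from 250 bases before the start to 50 after. TTNNGNAA was found in 7 of the 10 windows (Ngp, Ltf, Retnlg, Clec4d, Trem1, Fpr1 and Fpr2), against 40.7% of 32851 promoter windows. GAGGAAG was found in 3 (Mpo, Elane and Clec4d), against 13.6%. The letters of TTNNGNAA do not occur in the Camp window. A match is a description of letters, and its absence says nothing of the factor.

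As a check of the labels, Cdh1 had a log2 ratio of -4.24 ± 0.85 (SD, n = 3; adjusted p = 0.00186), and Atp4b had -6.83 ± 0.14 (adjusted p = 0.000235). Trp53 had -0.21 ± 0.15 and did not pass (adjusted p = 0.161). Whether these probes lie within the deleted parts is not given in the sources used here. Of 43020 gene spots on each array, 52.5 to 54.2% were well above background in green and 64.0 to 66.8% in red, and 0 were saturated. The number of arrays limits the precision, and since red always held the tumour, any difference between the dyes is part of each ratio.

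The sizes of these differences depend on how dim pool signals are treated. An offset of 50 was added to both channels, which pulls the ratios of dim genes towards 0. With only the offset changed, to 0, the mean log2 ratio was 5.84 for Camp, 5.65 for Ltf, 4.12 for Mpo, 4.10 for Retnlg, 4.04 for Ngp, 3.94 for Clec4d, 2.95 for Fpr2 and 2.29 for Fpr1, which was then called (adjusted p = 0.0210). Agilent's processed signals differ in background correction and dye normalisation as well, and gave 7.41 for Camp, 6.02 for Ltf, 5.69 for Ngp, 5.38 for Mpo, 4.80 for Fpr2, 4.70 for Retnlg, 4.66 for Clec4d and 3.24 for Fpr1 (adjusted p = 0.00810). Camp, Ngp and Fpr2 had no pool signal well above background, and for Mpo, Clec4d and Fpr1 the pool passed on 1 array only. For these 6 genes the ratios without an offset do not measure the size of the difference. With Agilent's processed signals Elane (0.21) and Trem1 (0.75), with brighter pool signals, hardly moved. The authors' deposited table held a value in all 3 tumours for Ltf (6.78, 5.89 and 5.38), Retnlg (5.65, 4.12 and 4.33), Elane (1.03, -0.31 and -0.10) and Trem1 (1.26, 0.49 and 0.49). In the authors' deposited table Clec4d, Fpr1 and Mpo were filled for tumour 1 only, at 6.35, 4.41 and 5.91.

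**Figure D4:**
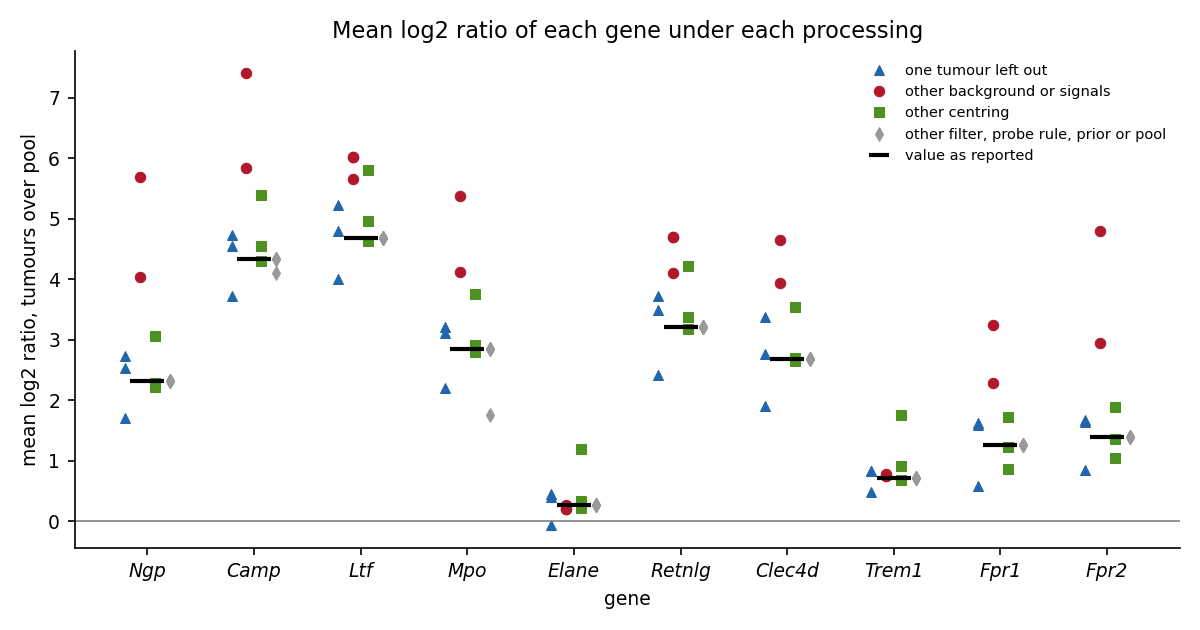
Mean log2 ratio of tumours over pool (vertical axis) for each gene (horizontal axis) as reported (black bars) and under each alternative (symbols by kind of alternative). The red circles, with another background correction or the processed or deposited signals, lie highest for the dim genes, as for Camp at 7.41. Elane has 1 value below 0, without tumour 1.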

How the data were processed

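Each Agilent array took 250 ng of total RNA, with an integrity number above 7, from 1 tumour and from the common pool. Per the file headers, the scanner data hold the intensity of each spot (mean, local background and processed signal) and a log10 ratio of red over green, from Agilent Feature Extraction 10.7.3.1; the submitters' processing notes give 9.5.3. Probe coordinates are mm9, per the file headers. The authors' deposited table is on a log2 scale, and 99.8% of its filled probes lay within 0.01 of the scanner log ratio, which settles its scale and direction and shows no further centring. Column medians were -0.15, -0.13 and -0.11, and 48.3 to 49.6% of probes are blank, for a reason the sources used here do not give.

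The analysis used limma 3.58.1 (R 4.3.3): normexp with an offset of 50, then loess on each array with no weight on control spots. Control spots were dropped, as were 157 to 190 gene spots an array with outlier flags. A probe was kept if 1 channel was well above background on all 3 arrays. Of 39429 probes, 26055 were named through accessions in a RefSeq table, and the rest kept the name in the file. The brightest kept probe stood for its gene. Mean log2 ratios were compared with 0 (lmFit, eBayes, two-sided), and p-values were adjusted by Benjamini-Hochberg across 19433 genes. The procedure was also tested on simulated log2 ratios, which did not model dim signals. Where the pool did not pass background on any array, the fold is a lower bound ("at least"). Its denominator, on each array, is the pool's signal or the dimmest signal that passed background, whichever is higher, on the scale after loess and Aquantile. For Camp, Ngp and Fpr2 the pool's signal was the higher, so bound and fitted fold are equal.

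The 10 genes and the gene lists were chosen with earlier results of these data known. The text names these 10 genes, up to 3 called genes with the largest absolute log2 ratio in each list (or else its brightest gene), relatives and partners of single genes, and the 5 nearest by distance. Some genes that this rule names are not reported here. The labels call the tumours biological replicates.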

Additional observations from a re-analysis of the deposited data

How the results depend on the processing

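The mean log2 ratio kept its sign for 9 of the 10 genes in every alternative. Elane was -0.067 to 0.45 when 1 tumour was left out, below 0 without tumour 1. Over the 10 genes, 7 were called as reported and 3 to 6 with 1 tumour left out. Of all genes, 9.33% were called higher as reported and 8.55 to 8.68% with 1 tumour left out. The count was 2 of 4 tested genes both with the authors' deposited log2 ratios and with probes well above background in both channels, since fewer genes could be tested. Of all genes tested, 12.1% and 9.54% were then called higher. The median log2 ratio of 2.50 was 3.99 with an offset of 0 and 4.75 with Agilent's processed signals. Centring on the median of gene spots moved the median of all genes by 0.72 and called 7747 genes higher and 556 lower, so 93.3% of called genes were higher, against 49.1% as reported (1814 higher and 1882 lower). All 10 neutrophil genes were then called, against 39.9% of all genes called higher. The median of the 10 genes lay 2.54 above that of all genes, against 2.46 as reported. Spike-in centring moved the median of all genes by -0.13 and called 2795 higher. An offset of 0 called 3192 higher, and Agilent's processed signals called 3738 higher and 3079 lower. The pool averaged over arrays was an alternative chosen after seeing the data. Each log ratio sets a tumour against the pool on its own array, so the comparison with 0 was already paired by array. The pool came from other mice, so no tumour could be paired with normal mucosa of its own mouse.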
